A study of Saccharomyces cerevisiae with 4 samples.

Results

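The genes described here are 53 genes of amino acid synthesis in budding yeast (Saccharomyces cerevisiae), taken by systematic name from the 6207 open reading frames (ORFs) of the array table: the HIS, ARG and CPA, LYS, LEU, ILV and BAT, TRP, ARO, HOM and THR, ASN and SER genes, with the regulator gene GCN4. Of these 53, 48 had a value on each of 4 arrays and entered the test. Wild-type cells exposed for 3 h to Zymolyase 100T (5 units/ml, an enzyme preparation that digests wall glucan) in rich YEPD medium at 24 °C were compared with the untreated portion of the same cultures, which shared strain, medium and temperature. RNA of 2 cultures was hybridised on dye-swapped pairs of two-colour arrays, with treated RNA on Cy3 on arrays 1 and 3 and on Cy5 on arrays 2 and 4. The genotype is given as wild type only, so whether any of the common laboratory marker genes among the members (HIS3, LEU2, LYS2) was deleted is not known here.

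Yeast makes all of its amino acids from central metabolites, and most of the genes below are known targets of the transcription factor Gcn4, whose synthesis is raised by translational control when amino acids are scarce. The pathways also have regulators of their own, such as Leu3 for leucine and valine genes and Lys14 for lysine genes. In rich medium amino acids can be taken up by permeases, and synthesis genes are known to be less active there than in minimal medium.

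Each value is a log2 ratio between treated and untreated RNA, with its sign turned for the dye swap. Which channel is the numerator could not be read from the labels. The sign was set so that SLT2, the gene of the cell wall integrity kinase, is positive (2.14, 2.39, 2.18 and 2.31 on arrays 1 to 4), a choice made after those values were seen. A negative value thus lies opposite to SLT2, and no statement is made on which side is higher after Zymolyase. SLT2 is known to be induced by wall damage, and on that basis alone the treated cells would be the likely higher side for positive values. Means are given ± SD over 4 arrays (n = 2 cultures), and past the test means an adjusted p of at most 0.05 in limma over 4543 ORFs. That p rests on 2 culture averages and on a spread drawn partly from all ORFs, so it does not measure the SD. In RNA of a whole culture, fewer cells with a transcript and less of it per cell cannot be told apart.

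Of the 48 members tested, 6 lay past the test opposite to SLT2, namely HIS4 (YCL030C), ASN1 (YPR145W), ILV2 (YMR108W), LEU1 (YGL009C), LYS9 (YNR050C) and LEU9 (YOR108W). That is 12.5% of the members, beside 1.39% of all ORFs tested that were called on that side. On the side of SLT2, 0 members passed in limma, beside 4.56% of all ORFs called there. At an unadjusted p of 0.05 the members numbered 13 opposite to SLT2 and 0 on its side, against 9.0% and 10.3% of all ORFs. Means were negative for 41 of the 48 members, against 56.7% of all ORFs, and 15 members lay in the lowest 10.0% of all means. The median over members was -0.17 and that over all ORFs tested was -0.03. The sizes were small: 0 members averaged a 2-fold difference, and 2 (THR1 and ASN1, both on array 1) passed a log2 ratio of 1 on any array. The count of 6 was 3 with arrays centred on their medians, 1 when they were also scaled, and 3 without array 2 and also without array 4. It was 19 with arrays 1 and 4, and arrays 2 and 3, taken as the cultures. The counts over all 4543 ORFs moved too. Opposite to SLT2 they were 63 in the test used here, 27 with arrays centred, 19 when also scaled and 631 in that pairing.

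**Figure D1:**
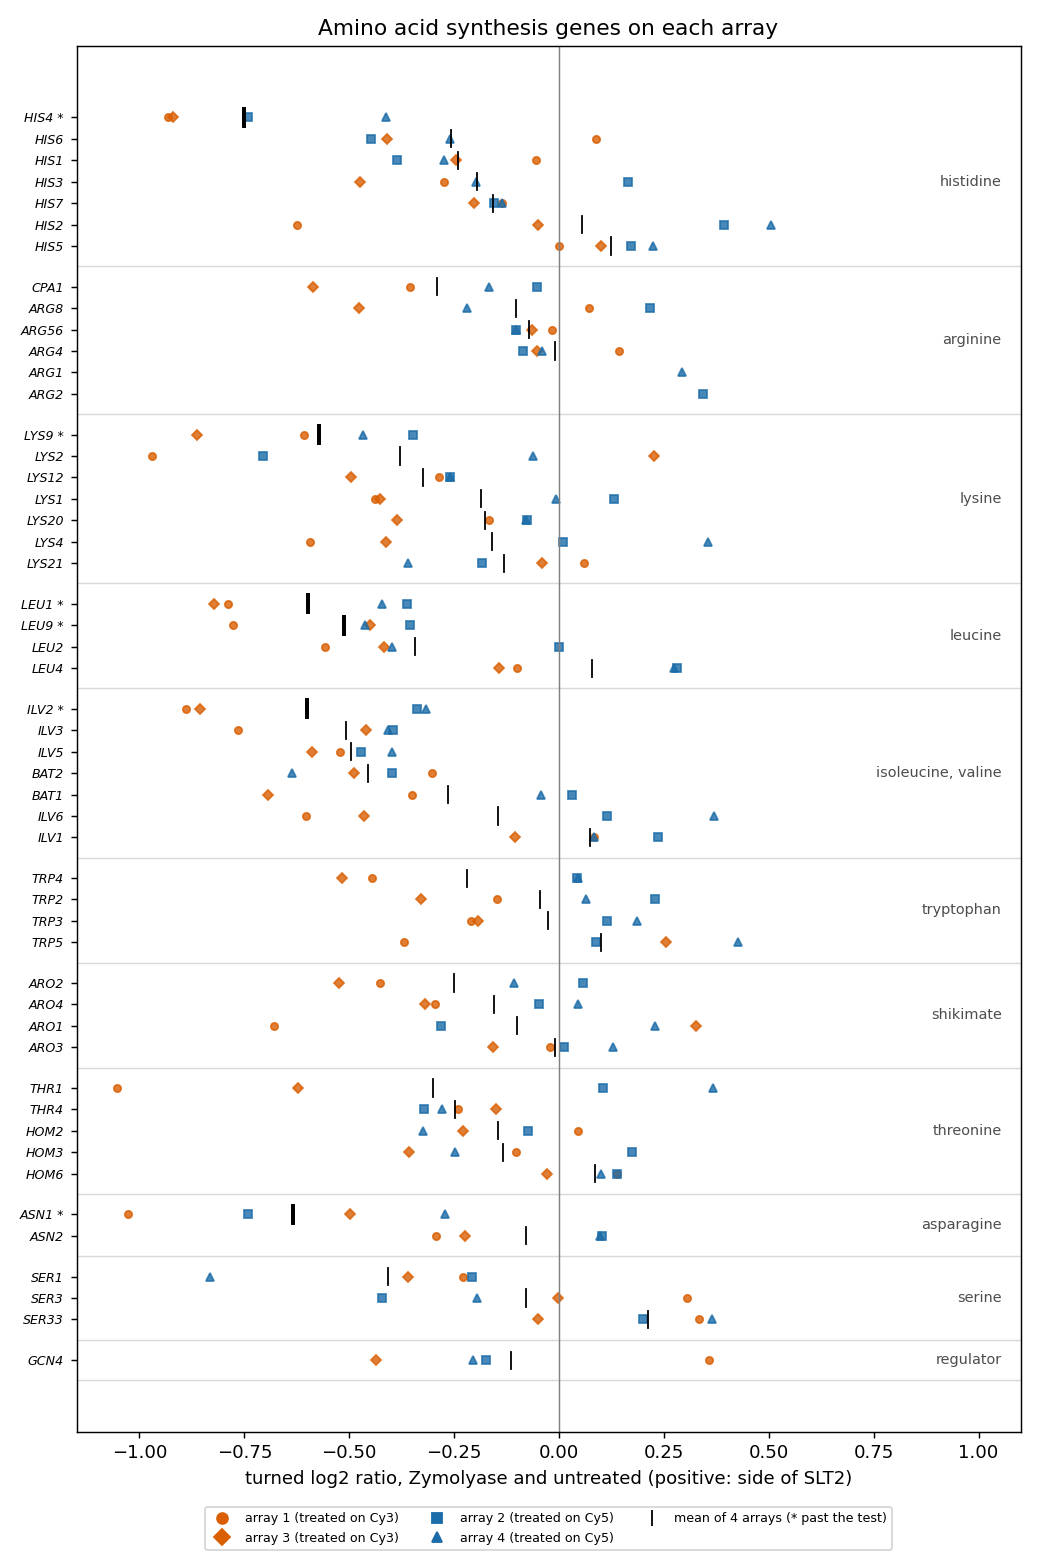
Turned log2 ratio (x axis, positive on the side of SLT2) of the members reported, by pathway, with 1 point per array and a black bar at the mean of 4 arrays; bold bars and asterisks mark the 6 genes past the test. The means of HIS4, LYS9, LEU1, LEU9, ILV2 and ASN1 lie between -0.75 and -0.51, and ARG1 and ARG2 have no bar because they have a value on 1 array each.

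The lowest group was the route to the branched-chain amino acids leucine, isoleucine and valine. It joins the pathways with the lowest medians, leucine (-0.43) and isoleucine and valine (-0.46). The plan kept these pathways separate, so the joint group is a description of the lowest values. Of its 11 genes 3 passed the test, all opposite to SLT2, beside 1.39% of all ORFs. Of the 11, 7 were negative on each array, a pattern seen in 15.3% of all ORFs. The median of the 11 means was -0.46, and the medians on arrays 1 to 4 were -0.56, -0.34, -0.46 and -0.40. The other 37 members had a median of -0.15. The difference between these groups of genes was not tested.

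The early shared steps take place in mitochondria. ILV2 encodes the catalytic subunit of acetolactate synthase, the enzyme that starts the valine and leucine route. It had -0.89, -0.34, -0.86 and -0.32 on arrays 1 to 4. All 4 values were negative, and both arrays with treated RNA on Cy3 were lower than both with it on Cy5. Its mean was -0.60 ± 0.31 (adjusted p = 0.0239), a difference of 1.52-fold. The call ended with the 4 arrays taken as independent and no dye term (adjusted p = 0.0520) and with centred and scaled arrays (0.0527). ILV6, the gene of the regulatory subunit of the same enzyme, had -0.60 and -0.46 on arrays 1 and 3 but 0.12 and 0.37 on arrays 2 and 4. Its mean of -0.15 ± 0.46 therefore averages opposite signs by dye (adjusted p = 0.606).

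The next enzymes, the reductoisomerase Ilv5 and the dehydratase Ilv3, stood just outside the threshold. ILV5 (YLR355C) was the most even of these genes, with -0.52, -0.47, -0.59 and -0.40 on arrays 1 to 4. Its mean was -0.50 ± 0.08 and its adjusted p was 0.0519. ILV3 (YJR016C) had -0.77, -0.40, -0.46 and -0.41, with a mean of -0.51 ± 0.17 and the same adjusted p. Both genes passed in 6 of 13 other settings. ILV1, the threonine deaminase gene that leads into isoleucine, had 0.08, 0.23, -0.10 and 0.08 and a mean of 0.07 ± 0.14. Its 95% interval in limma ran from -0.21 to 0.36.

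Leucine has its own branch, opened by isopropylmalate synthase, for which yeast has a pair of genes. LEU9 had -0.78, -0.36, -0.45 and -0.46 on arrays 1 to 4 (-0.51 ± 0.18, adjusted p = 0.0483). LEU4 had -0.10, 0.28, -0.14 and 0.27 (0.08 ± 0.23, adjusted p = 0.797). LEU9 was lower than LEU4 on 4 of 4 arrays, by 0.59 ± 0.19 on average; that difference was not tested. The LEU9 call ended with arrays centred (adjusted p = 0.0796), scaled (0.0795) or quantile normalized (0.0573), and without array 1 (0.0697), array 2 (0.0871) or array 4 (0.1245).

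LEU1 encodes isopropylmalate isomerase, the following step. Its values were -0.79, -0.36, -0.82 and -0.42, again negative on all 4 arrays and lower on arrays 1 and 3. The mean was -0.60 ± 0.24 (adjusted p = 0.0241), and the call ended with arrays scaled (0.0537) and without array 4 (0.0521). LEU2, the gene of the dehydrogenase that follows, had -0.56, -0.0003, -0.42 and -0.40 and did not pass (-0.34 ± 0.24, adjusted p = 0.160).

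The last step is transamination by the mitochondrial Bat1 or the cytosolic Bat2. BAT2 was negative on all arrays with -0.30, -0.40, -0.49 and -0.64 and did not pass (-0.46 ± 0.14, adjusted p = 0.0765). BAT1 had -0.35, 0.03, -0.69 and -0.04 (-0.26 ± 0.33, adjusted p = 0.302). BAT2 was the lower of the pair on arrays 2 and 4 and the higher on arrays 1 and 3.

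A gene outside the 53 lay beside this route. OAC1 encodes a carrier of the inner mitochondrial membrane for oxaloacetate that is also known to export the leucine precursor isopropylmalate. It had -0.67, -0.53, -0.89 and -0.82 on arrays 1 to 4, so all arrays were negative with no split by dye. Its mean was -0.73 ± 0.16 (adjusted p = 0.0132), and it passed in 13 of 13 other settings. These include both single pairings of arrays, which any gene past the test must pass. LEU3, the gene of the route's regulator, lacked a value on array 3 (-0.50, -0.22 and 0.02 on arrays 1, 2 and 4) and was not tested.

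**Figure D2:**
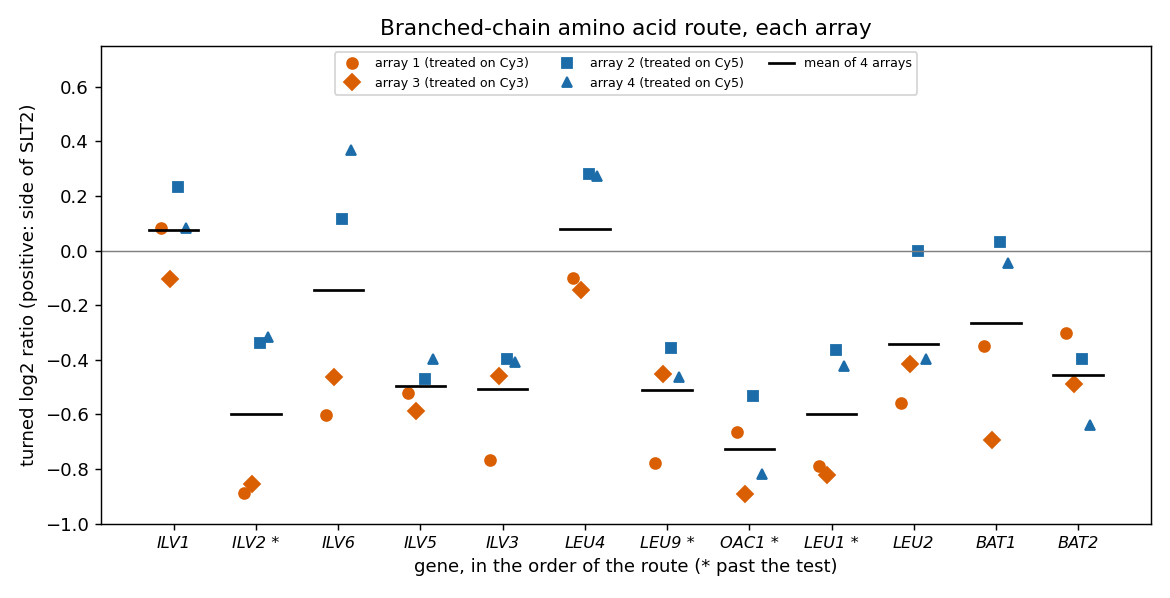
Turned log2 ratios (y axis) of the branched-chain genes and OAC1 in the order of the route, with 1 point per array and a bar at the mean of 4 arrays; asterisks mark genes past the test. ILV2, LEU9, OAC1 and LEU1 lie below 0 on each array, while ILV6 and LEU4 are negative with treated RNA on Cy3 and positive with it on Cy5.

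In histidine synthesis 1 of 7 genes passed, HIS4, opposite to SLT2, beside 1.39% of all ORFs, and it was the lowest of all members. HIS4 encodes an enzyme of several domains that catalyses several reactions of the pathway and is the classical reporter of Gcn4 activity. It had -0.93, -0.74, -0.92 and -0.41 on arrays 1 to 4. Arrays 1 and 3 were again lower than arrays 2 and 4. Its mean was -0.75 ± 0.24 (adjusted p = 0.00960), or 1.68-fold, the 18th lowest of 4543 ORFs. It passed in 13 of 13 other settings, with adjusted p from 2.49e-06 to 0.0468. Both single pairings of arrays are among them, and any gene past the test must pass those.

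The other HIS genes did not pass. HIS1, whose enzyme begins the pathway, had -0.06, -0.39, -0.25 and -0.27 (-0.24 ± 0.14, adjusted p = 0.330), and HIS7, the glutamine amidotransferase gene, stood between -0.20 and -0.14 on all arrays. HIS6 had -0.26 ± 0.24 and HIS3 -0.20 ± 0.27. HIS5, an aminotransferase gene, was the highest with 0.0001, 0.17, 0.10 and 0.22 (0.12 ± 0.10, adjusted p = 0.661). HIS2, the histidinol phosphatase gene, was split by dye: treated RNA gave -0.62 and -0.05 on Cy3 and 0.39 and 0.50 on Cy5. The pathway median was -0.20. In fits with a dye term it was -0.25 without array 1 and -0.14 without array 3. In those fits the lone array of an orientation weighs as much as both arrays of the other.

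Lysine synthesis had negative means for 7 of 7 genes, beside 56.7% of all ORFs. Of the 7, 1 passed the test, opposite to SLT2, beside 1.39% of all ORFs. LYS9 encodes the saccharopine dehydrogenase that forms saccharopine, the step before the last. It had -0.61, -0.35, -0.86 and -0.47 (-0.57 ± 0.22, adjusted p = 0.0340). All 4 values were negative and the orientations did not overlap. The call ended with arrays centred (0.0610), scaled (0.0707) or quantile normalized (0.0550), and without array 2 (0.0527), array 3 (0.0546) or array 4 (0.0785). LYS1, whose enzyme makes lysine from saccharopine, had -0.44, 0.13, -0.43 and -0.01 on arrays 1 to 4.

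LYS2, the aminoadipate reductase gene, spread more than most, with -0.97, -0.71, 0.23 and -0.06 on arrays 1 to 4. Arrays 1 and 2 were low and arrays 3 and 4 near or above 0, a split that does not follow the dyes (-0.38 ± 0.55, adjusted p = 0.361). LYS12 had -0.33 ± 0.11 (adjusted p = 0.185) and LYS4 -0.16 ± 0.43. The paralogous homocitrate synthase genes that open the pathway were close, with -0.18 ± 0.15 for LYS20 and -0.13 ± 0.18 for LYS21. LYS20 was the lower on arrays 1 and 3 and the higher on arrays 2 and 4. The median of the 7 means was -0.19.

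Asparagine is made by a pair of synthetase genes that differed in their values. ASN1 had -1.03, -0.74, -0.50 and -0.27 on arrays 1 to 4, all negative and with overlapping orientations. Its mean was -0.63 ± 0.32 (adjusted p = 0.0454), or 1.55-fold. ASN2 had -0.29, 0.10, -0.22 and 0.10 (-0.08 ± 0.21, adjusted p = 0.796). ASN1 was lower than ASN2 on 4 of 4 arrays, by 0.56 ± 0.28 on average, and this difference was not tested. The ASN1 call ended with arrays centred (adjusted p = 0.117), scaled (0.116) or quantile normalized (0.0641), and without array 1 (0.106), array 2 (0.124) or array 3 (0.0552).

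Arginine synthesis was measured in part. Of 9 genes 4 had values on all arrays, 0 of them passed in limma and 1 (CPA1) had an unadjusted p under 0.05. Over all ORFs, 1.39% passed opposite to SLT2 and 4.56% on its side. At an unadjusted p of 0.05 in limma the shares were 9.0% and 10.3%. CPA1, a carbamoyl phosphate synthase gene, had -0.36, -0.05, -0.59 and -0.17 (-0.29 ± 0.23, adjusted p = 0.247). ARG56, whose product is cut into the kinase and the reductase of the pathway, stayed within -0.10 and -0.02 on all arrays (-0.07 ± 0.04), the second smallest spread of the 48 members.

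ARG4, the argininosuccinate lyase gene, had -0.01 ± 0.10 with a 95% interval from -0.29 to 0.27, and ARG8 -0.10 ± 0.31. Single values were given for ARG1 (0.29 on array 4), the argininosuccinate synthase gene, and ARG2 (0.34 on array 2), the acetylglutamate synthase gene. ARG3 and ARG7 had none. The 4 genes had a median of -0.09, and 2 of them, ARG56 and CPA1, were negative on each array, beside 15.3% of all ORFs.

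Serine, threonine and the aromatic amino acids gave 0 genes past the test in limma, and at an unadjusted p under 0.05 they gave 1, SER1. Over all ORFs, 1.39% passed opposite to SLT2 and 4.56% on its side. At an unadjusted p of 0.05 in limma the shares were 9.0% and 10.3%. SER1, the phosphoserine aminotransferase gene, was negative on all arrays with -0.23, -0.21, -0.36 and -0.83 (-0.41 ± 0.29, adjusted p = 0.140). The phosphoglycerate dehydrogenase genes ahead of it lay apart in mean. SER33 was the highest of all 48 members with 0.33, 0.20, -0.05 and 0.36 (0.21 ± 0.19, adjusted p = 0.403), and SER3 had 0.31, -0.42, -0.0012 and -0.20 (-0.08 ± 0.31).

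In the threonine route, THR1, the homoserine kinase gene, had the widest split by dye of any member. It had -1.05 and -0.62 on arrays 1 and 3 against 0.11 and 0.37 on arrays 2 and 4, and a mean of -0.30 ± 0.65 (adjusted p = 0.273). THR4, the threonine synthase gene, was even, with -0.24, -0.32, -0.15 and -0.28 (-0.25 ± 0.07, adjusted p = 0.315). The genes of the earlier steps from aspartate had means of -0.15 ± 0.16 (HOM2), -0.13 ± 0.23 (HOM3) and 0.09 ± 0.08 (HOM6).

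The shikimate genes ARO1 to ARO4, whose products lead to chorismate, had means from -0.25 to -0.01. ARO2, the chorismate synthase gene, was lowest with -0.43, 0.06, -0.52 and -0.11 (-0.25 ± 0.27, adjusted p = 0.317). ARO3 (-0.01 ± 0.12) and ARO4 (-0.15 ± 0.18) encode the paired synthases of the entry step, and ARO4 was lower on 4 of 4 arrays by 0.14 ± 0.10 on average. ARO1 had -0.68, -0.28, 0.33 and 0.23, low on arrays 1 and 2 and high on arrays 3 and 4.

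The tryptophan genes had a median of -0.04, close to the -0.03 of all ORFs. Of the 4 genes 0 passed, beside 1.39% of all ORFs opposite to SLT2 and 4.56% on its side. In 3 of these 4 genes the dye orientations did not overlap, with both Cy3 arrays the lower. That pattern was held by 27.4% of all ORFs, and the reverse by 28.1%. TRP4, the gene of the transferase that follows anthranilate synthase, had -0.45, 0.04, -0.52 and 0.05 on arrays 1 to 4 (-0.22 ± 0.31, adjusted p = 0.381). TRP5, the tryptophan synthase gene, was highest (0.10 ± 0.34), while TRP2 and TRP3, the genes of anthranilate synthase, had -0.05 ± 0.24 and -0.03 ± 0.20.

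GCN4 (YEL009C) itself had 0.36, -0.17, -0.44 and -0.21 on arrays 1 to 4. Array 1 was positive and the other arrays negative. Its mean was -0.11 ± 0.34 (adjusted p = 0.735) with a 95% interval from -0.44 to 0.21. Without array 3, the fit with a dye term gave an estimate of 0.08. There array 1, the lone array of its dye orientation, weighs as much as the arrays of the other orientation together. The estimate of 0.08 is therefore not a plain mean of the remaining arrays, and its sign rests on array 1. As background, Gcn4 is known to be controlled mainly through translation of its mRNA and stability of the protein, neither of which these arrays measure.

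**Figure D3:**
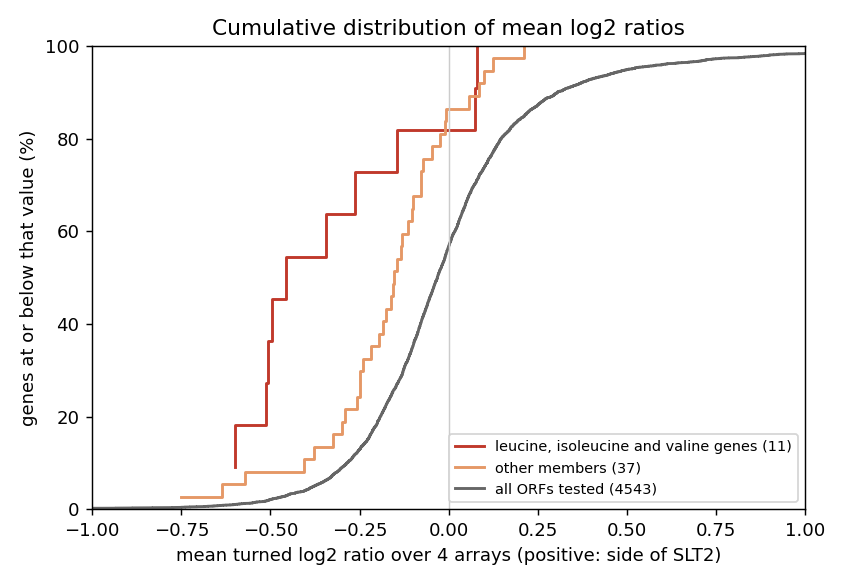
Share of genes (y axis, %) at or below each mean turned log2 ratio (x axis) for the 11 branched-chain genes, the other 37 members and all 4543 ORFs tested; ORFs beyond -1 or 1 lie outside the axis. The medians are -0.46, -0.15 and -0.03.

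The dye orientation moved with these values and is given beside them. In 27 of the 48 members both arrays with treated RNA on Cy3 were below both arrays with it on Cy5, a pattern held by 27.4% of all ORFs, and in 5 the reverse held, against 28.1% of all ORFs. The member medians were -0.29 on array 1 and -0.37 on array 3, and -0.06 on array 2 and -0.12 on array 4. Both Cy3 arrays were negative for 34 members (33.2% of all ORFs), and both Cy5 arrays for 25 (42.0% of all ORFs). Averaging 1 array of each orientation cancels an additive dye effect, and the part of the dyes in the member values was not tested further. All 4 arrays were negative for 18 members and all 4 positive for 1, HIS5 (15.3% and 13.1% of all ORFs).

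**Figure D4:**
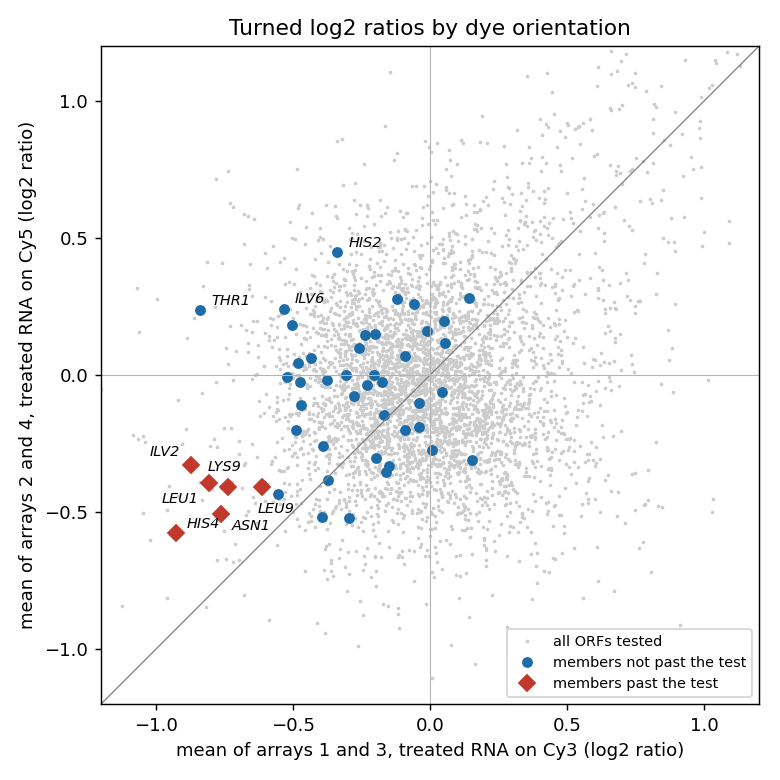
Mean turned log2 ratio of arrays 1 and 3, with treated RNA on Cy3 (x axis), against that of arrays 2 and 4, with it on Cy5 (y axis), for each ORF tested (grey), members not past the test (blue) and the 6 members past it (red); the diagonal marks equal values, and ORFs beyond 1.2 on either axis are outside the plot. The 6 members past the test are negative in both orientations, while THR1, ILV6 and HIS2 are negative on x and positive on y.

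Across the 48 members the arrays differed in how alike they were. Pearson's r was 0.63 between arrays 2 and 4, 0.47 between 3 and 4, 0.42 between 1 and 3, 0.39 between 1 and 2, 0.24 between 2 and 3 and 0.07 between 1 and 4. These are descriptions across genes, which share arrays, dyes and RNA and are not independent. Arrays 2 and 4 were also the most alike over all ORFs (0.75) and arrays 1 and 4 the least (0.09).

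**Figure D5:**
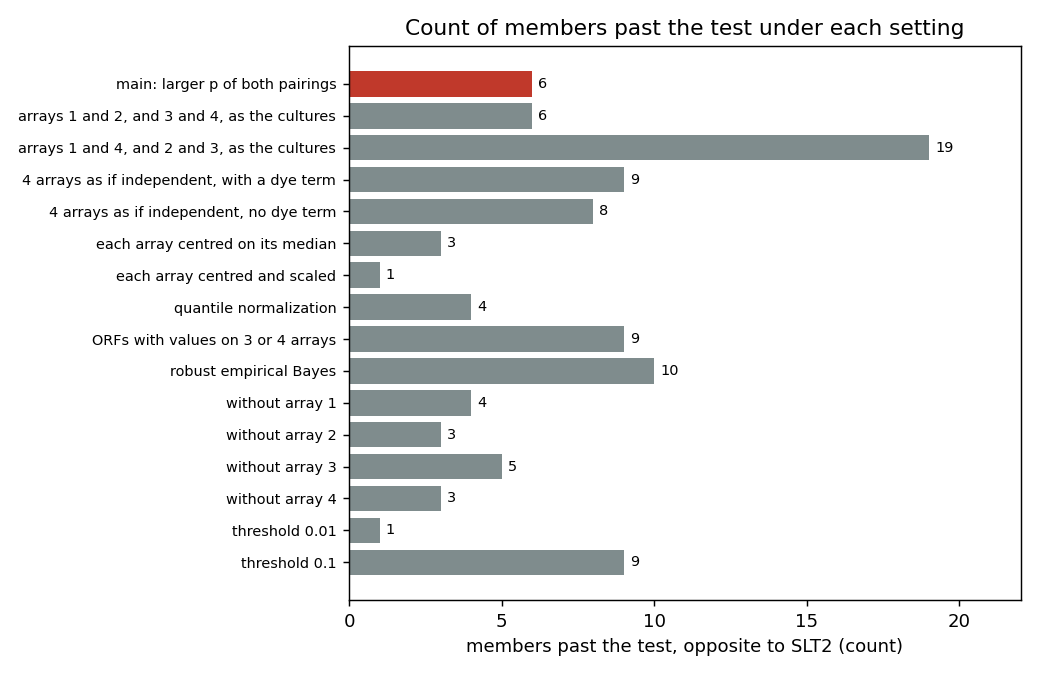
Number of members past the test opposite to SLT2 (x axis) under the test used here (red) and each alternative (grey). The count was 6 in the test used here and ran from 1 to 19 over the alternatives. Over all 4543 ORFs it was 63 in the test used here and 631 in the pairing that gave 19.

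Other genes of amino acid metabolism, listed by function, were read in the same fit. Over all ORFs tested, 1.39% passed opposite to SLT2 and 4.56% on its side. At an unadjusted p of 0.05 in limma these shares were 9.0% and 10.3%. Of 19 further synthesis genes and carriers on 4 arrays, OAC1 passed opposite to SLT2 and 0 passed on its side, with 4 and 1 at an unadjusted p under 0.05, 5 in the lowest 10.0% of all means and a median of -0.05; ARO9, an aromatic aminotransferase gene, was highest at 0.33 ± 0.29 (adjusted p = 0.226). Of 11 regulators 0 passed in limma and 1 had an unadjusted p under 0.05, with a median of -0.04. LYS14, the activator gene of the lysine pathway, was their lowest with -0.58, 0.10, -0.45 and -0.20 (-0.28 ± 0.30, adjusted p = 0.251). PCL5, a cyclin gene that acts in Gcn4 turnover, was their highest with -0.58, -0.33, 0.50 and 0.92, low on arrays 1 and 2 and high on arrays 3 and 4 (0.12 ± 0.70, adjusted p = 0.846).

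Among 11 genes of amino acid breakdown 1 passed, on the side of SLT2, beside 4.56% of all ORFs. At an unadjusted p under 0.05 in limma there were 2 on that side and 0 opposite, beside 10.3% and 9.0% of all ORFs. CHA1 encodes the catabolic serine and threonine deaminase and had 0.63, 0.57, 0.56 and 0.68 on arrays 1 to 4. All arrays were positive and within a narrow range (0.61 ± 0.06, adjusted p = 0.0219); without array 4 the adjusted p was 0.0521. GCV2, a glycine decarboxylase subunit gene, was lowest at -0.27 ± 0.42, and the median was 0.04. Of 18 permease genes 0 passed in limma and 3 had an unadjusted p under 0.05, 2 opposite to SLT2 and 1 on its side. Over all ORFs the unadjusted shares were 9.0% opposite and 10.3% on its side. TAT1, whose product imports tyrosine and branched-chain amino acids, was lowest with -0.98, -0.49, -0.41 and -0.09 (-0.49 ± 0.37, adjusted p = 0.0999). BAP3, a branched-chain amino acid permease gene, was highest with 0.15, 0.44, 0.29 and 0.45 (0.33 ± 0.14, adjusted p = 0.168), and the median was -0.08. Of 6 mating-type genes measured, kept as a check of cell identity, MFA1 passed opposite to SLT2 (-0.54 ± 0.33, adjusted p = 0.0373), beside 1.39% of all ORFs. At an unadjusted p under 0.05 in limma there were 2 on that side, beside 9.0% of all ORFs. MFA1 had -0.30, -0.85, -0.21 and -0.80 on arrays 1 to 4, so both arrays with treated RNA on Cy3 were the higher. MFA1 passed in 7 of 13 other settings, which include both single pairings that any gene past the test must pass. BAR1 was highest (0.05 ± 0.14). Ratios hold no level, so the cell type itself could not be checked.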

How the data were processed

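The authors deposited 1 table of 6209 rows (6207 ORFs and 2 control rows, left out) with the values of 4 two-colour arrays. The authors deposited these values as log ratios of the channels, read here as log2; their base, numerator, background correction and normalization are not stated in the labels. Values of arrays with opposite dyes correlated below 0 (r from -0.52 to -0.08), so each array was turned according to its labelled dyes, and the common sign was set to make SLT2 positive. Turning all signs swaps the sides and changes no count. RefSeq (assembly R64) named 5654 ORFs by locus tag, 53 of 53 members included; no coordinates or sequences were used. Intensities were not used, which leaves signal over background unknown, and precision is limited by the number of arrays. Probe sequences were not used either, so paralogues (LYS20 and LYS21, ASN1 and ASN2, SER3 and SER33, BAT1 and BAT2, LEU4 and LEU9) and overlapping ORFs may share signal.

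Arrays were averaged in pairs of opposite dye to 2 cultures. Because no label ties arrays to cultures, limma 3.58.1 (lmFit, eBayes; R 4.3.3) was run on both possible pairings and the larger p kept, with Benjamini-Hochberg adjustment over the 4543 ORFs measured on 4 arrays; the 5 members without 4 values were not tested, and 1 of them is not reported here. The fit was checked on simulated data with independent noise on each array and no effect shared within a culture. That check therefore does not cover the unknown pairing of arrays. Nothing says how far apart the cultures were in origin, so p-values reach no further than these samples. In limma the spread of a gene between its 2 culture averages is drawn towards that of all ORFs. ILV2 and ILV5 had standard errors of 0.1199 and 0.1198, though their SDs over arrays were 0.31 and 0.08. The p-values therefore do not measure the SD printed beside them. Members and lists were chosen with earlier results of these data known. Named are all members past the test, the highest and lowest of each pathway and list, both paralogues of a pair, GCN4 and members lacking values; other members and LEU3 were added after their values were seen.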

Additional observations from a re-analysis of the deposited data

Results flagged for a closer look

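One array stood far from the others for 1 gene. LYS12, the homoisocitrate dehydrogenase gene, had -0.49 on array 3 and -0.29, -0.26 and -0.26 on arrays 1, 2 and 4. Of the 72 groups of 4 values checked this was the only one so marked, and chance marks about 1 in 20.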

How the results depend on the processing

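No alternative turned the sign of a member past the test, and 22 of their calls were lost over 13 settings. Those settings include both single pairings, where no such call can be lost because the test keeps the larger p. Of members not past the test, 13 passed in at least 1 setting, and 7 of the 42 changed sign in at least 1. All 13 passed with arrays 1 and 4, and 2 and 3, as the cultures. In that pairing 631 of all 4543 ORFs passed opposite to SLT2 and 598 on its side. Opposite to SLT2, the members past the test numbered 19 with arrays 1 and 4, and 2 and 3, as the cultures, 10 with robust empirical Bayes, 3 with arrays centred, 1 with centring and scaling, 1 at a threshold of 0.01, and 3 to 5 when 1 array was left out. On the side of SLT2 the count was 0 in each setting. Over all ORFs the counts opposite to and on the side of SLT2 were 63 and 207. They were 631 and 598 in that other pairing, 225 and 358 with robust empirical Bayes and 13 and 120 at 0.01. With a dye term and every array its own replicate they were 193 and 319. That same fit on ORFs with values on 3 or 4 arrays gave counts of 189 and 338. Opposite to SLT2 they were 27 with centring, 19 with scaling, 153 at 0.1 and 39 to 60 without 1 array. With the other pairing the lists opposite to and on the side of SLT2 gave 2 and 0 for regulators, 6 and 1 for other synthesis, 1 and 3 for breakdown, and 4 and 1 for permeases. At 0.01 other synthesis opposite to SLT2 and breakdown on its side gave 0. Breakdown gave 2 on that side at 0.1 and with robust empirical Bayes, and 0 to 2 without 1 array. Permeases opposite to SLT2 gave 1 at 0.1 and with robust empirical Bayes. The histidine median ran from -0.25 to -0.14 without 1 array. The causes were not tested. Fits without 1 array use fewer samples. Those fits, and the fit for ORFs on 3 or 4 arrays, take arrays as independent with a dye term and so change the unit of replication. Without 1 array, the lone array of an orientation weighs as much as both arrays of the other. Each ratio already sets treated against untreated RNA, and both pairings of arrays into cultures were fitted, so no further block by replicate number was used. The promoter motif count that had been planned was not run, since no sequences were used here. With 2 cultures and no intensities, a member not past the test is not shown to be unchanged.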
